A study of Mus musculus with 14 samples.

Results

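Interleukin 15 (IL-15), the 3 receptor chains that bind it and the kinases and transcription factors below them were followed through immature natural killer cells (iNK) and immature type 1 innate lymphoid cells (iILC1) of mouse bone marrow. The genes were taken as the rows of the count table whose Ensembl identifiers map to Il15, Il15ra, Il2rb, Il2rg, Jak1, Jak3, Stat5a and Stat5b, which gave 8 genes of the 46078 in the table. The groups were cKO iILC1 (n = 4), control iILC1 (n = 3), cKO iNK (n = 4) and control iNK (n = 3), all from 8-week-old C57BL/6 mice. The cKO genotype is labelled Vav-Cre;Il-15-flox/KO and the control genotype Il-15-flox/KO, so in each genotype 1 Il15 allele was floxed and the other was a knockout, and the Cre transgene was the difference between them. The Vav promoter drives Cre throughout the haematopoietic lineage, and most cells outside that lineage are expected to keep the floxed allele. Each library was made from 2000 sorted cells, and its total count was 3512796 to 12572326.

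IL-15 is held on the surface of a producing cell by IL-15Rα and handed to a neighbouring cell that bears the β and γ chains, a route called trans-presentation. The β chain binds the kinase JAK1 and the γ chain binds JAK3, and the paired kinases phosphorylate STAT5A and STAT5B, which then move to the nucleus. NK cells and ILC1s depend on this route for survival, and immature NK cells of the bone marrow already carry the β chain.

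Il7r, Itga1 and Eomes differed between iILC1 and iNK as the labels say, while other gate and marker genes did not all do so. Il7r, which encodes the IL-7Ra of the gate, lay at 523 to 718 CPM (read counts scaled to library size with TMM factors) in cKO iILC1 and 351 to 472 CPM in control iILC1. In cKO iNK it lay at 15.6 to 27.0 CPM and in control iNK at 6.71 to 11.4 CPM. Itga1, which encodes CD49a, was 42.9 to 81.9 CPM over the iILC1 libraries of both genotypes and 7.95 to 14.6 CPM over the iNK libraries. Eomes, a transcription factor of NK cells, was 74.0 to 114 CPM in cKO iILC1 and 114 to 147 CPM in control iILC1, against 582 to 932 CPM in cKO iNK and 486 to 884 CPM in control iNK. The NK marker Itga2 was also lower in iILC1 in both genotypes. Ncr1, another NK marker, went the other way in cKO, at 1683 to 3106 CPM in iILC1 against 646 to 1074 CPM in iNK. In control the Ncr1 ranges overlapped, as did those of Klrb1c, Cd27 and Tbx21 in each genotype. Cd3e, which encodes a chain of the CD3 complex that both gates exclude, was 22 to 34.2 CPM in cKO iILC1 and 40.5 to 79.3 CPM in control iILC1, against 1.11 to 6.79 CPM in cKO iNK and 2.19 to 4.96 CPM in control iNK. Some ranges also separated the genotypes. Itgam was lower in cKO iNK, at 53.7 to 70.4 CPM, than in control iNK, at 83.6 to 165 CPM. It was lower in cKO iILC1, at 27.1 to 45.8 CPM, than in control iILC1, at 67.6 to 132 CPM. Ncr1 was lower in cKO iNK than in control iNK, where it lay at 1129 to 1779 CPM. Cd3e was lower in cKO iILC1, and Il7r was higher in cKO in both cell types. Of all genes, 8.84% separated the genotypes in iNK and 5.48% in iILC1.

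Odour and pheromone receptor genes, which lymphocytes should not use, served as a measure of background reads. The 1669 such genes summed to 1881 to 3437 CPM in cKO iILC1, 2518 to 3539 CPM in control iILC1, 2004 to 3051 CPM in cKO iNK and 1621 to 2912 CPM in control iNK. The ranges overlapped between all 4 groups but the levels were not balanced. Medians were 2971 CPM in cKO iILC1, 3388 CPM in control iILC1, 2439 CPM in cKO iNK and 1857 CPM in control iNK. Control iNK replicates 1 and 2, at 1621 and 1857 CPM, lay below every control iILC1 library. The 12 marker genes of B-lineage cells, a type outside both gates, summed to 227 to 327 CPM in cKO iNK, above 59.3 to 76.3 CPM in control iNK, 61.4 to 114 CPM in cKO iILC1 and 95.1 to 103 CPM in control iILC1, and no marker was at 0 throughout a group.

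The members spanned a wide range of levels, and the order was nearly the same in each group. Levels were compared between genes as CPM per kilobase of listed exon. Il2rb, which encodes the β chain shared with the IL-2 receptor, stood first in all 4 groups, with group means of 1116 CPM per kb in cKO iILC1, 1043 in control iILC1, 971 in cKO iNK and 1287 in control iNK. Jak1 came next, at 267 CPM per kb in cKO iILC1, 230.5 in control iILC1, 553 in cKO iNK and 473 in control iNK. Il2rg, the γ chain shared by the receptors for IL-2, IL-4, IL-7, IL-9, IL-15 and IL-21, followed at 155 CPM per kb in cKO iILC1, 128 in control iILC1, 101 in cKO iNK and 127 in control iNK. The ranges over libraries of these 3 genes did not overlap one another within any group. The Il2rg level may be too low, since part of its exons overlaps another gene, as given below.

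Jak3 and Stat5b took the next places, and their ranges overlapped within each group. Stat5a, Il15ra and Il15 were lowest. Il15 per kb lay below Il15ra with no overlap in cKO iNK, control iNK and control iILC1, while in cKO iILC1 both overlapped, at means of 9.44 CPM per kb for Il15 and 9.27 for Il15ra. By mean CPM per kb over all libraries, Il2rb was at percentile 99.9 of the 26990 genes tested, Jak1 at 99.7, Il2rg at 99.0, Jak3 at 93.8, Stat5b at 92.2, Stat5a at 78.5, Il15ra at 75.0 and Il15 at 70.2.

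**Figure D1:**
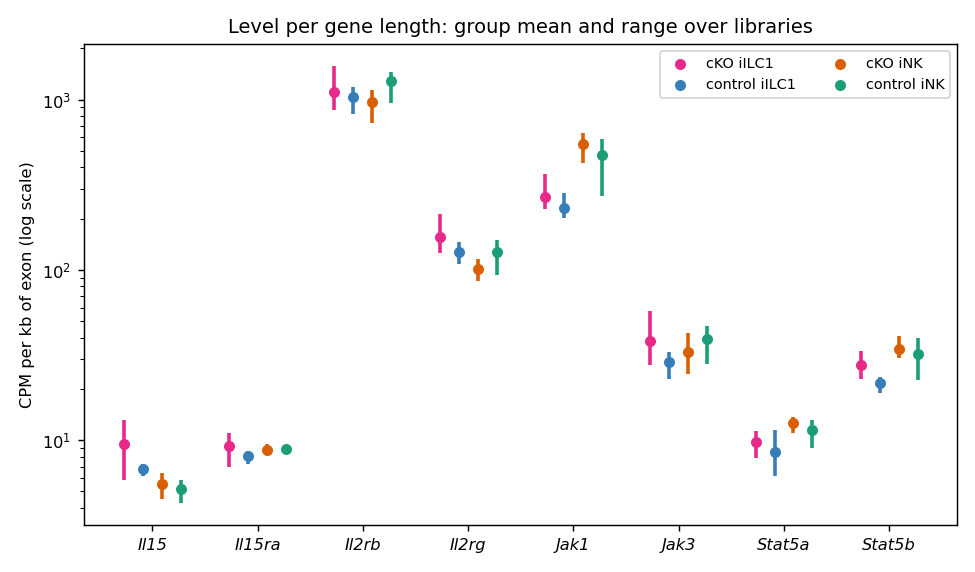
Level per gene length of the 8 genes, as CPM per kilobase of exon on a log axis; points are group means and bars run from the lowest to the highest library (cKO iILC1 n = 4, control iILC1 n = 3, cKO iNK n = 4, control iNK n = 3). Il2rb, Jak1 and Il2rg stand apart from the other 5 genes, and the iILC1 groups sit lower than the iNK groups for Jak1.

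Il15, the gene targeted by the Cre, was low everywhere, and its group means were not lower in cKO than in control. The gene (ENSMUSG00000031712, mm10 chromosome 8, 82331637 to 82403222, minus strand) had 11.2, 10.4, 8.58 and 12.3 CPM in cKO iNK, against 11.1, 10.3 and 8.16 CPM in control iNK. In iILC1 it had 25.0, 18.1, 17.8 and 11.2 CPM in cKO, against 13.7, 13.3 and 11.7 CPM in control. The cKO iNK and control iNK values overlapped throughout, and 3 of the 4 cKO iILC1 libraries lay above every control iILC1 library while the fourth lay below them. These levels rest on 47 to 206 counts per library.

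The log2 fold change of Il15 between cKO and control was 0.11 in iNK (SE 0.281, edgeR adjusted p = 0.953) and 0.48 in iILC1 (SE 0.280, edgeR adjusted p = 0.979). The 95% interval of the fold was 0.724 to 1.6 in iNK and 0.938 to 2.08 in iILC1. Counts per gene do not resolve the floxed exon, so a transcript that lacks it is counted with the intact one, and these values do not check the deletion. In bulk libraries, fewer cells of a type and less RNA per cell cannot be told apart, here and in the results that follow.

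**Figure D2:**
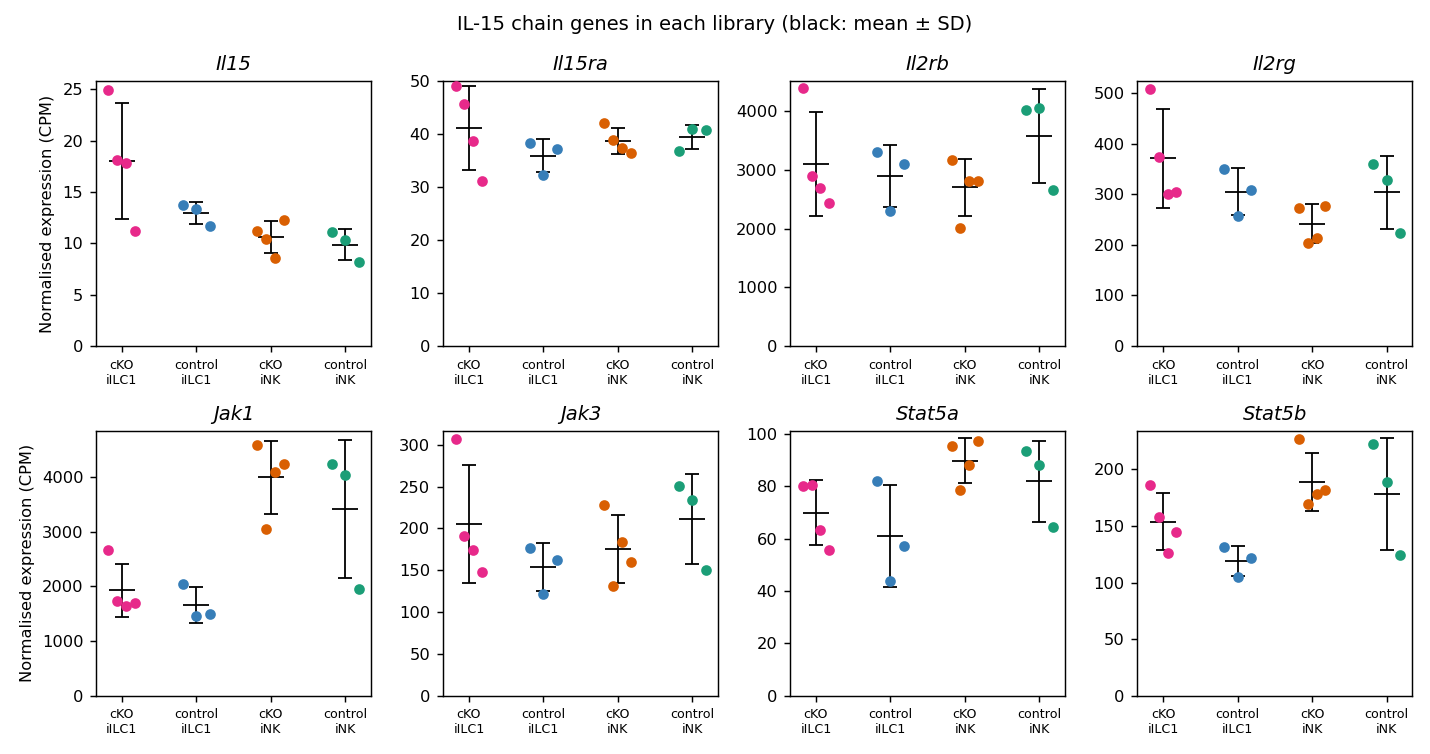
Normalised expression (CPM) of each of the 8 genes in every library, by group; the bars are the mean ± SD (cKO iILC1 n = 4, control iILC1 n = 3, cKO iNK n = 4, control iNK n = 3). Each cKO group overlaps its control in all 8 panels, and the cKO iILC1 libraries lie below the cKO iNK libraries for Jak1.

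None of the 8 genes passed edgeR's quasi-likelihood test between genotypes, at an adjusted p under 0.05 (Benjamini-Hochberg over all genes tested). In iNK 0 of 8 were called, where 0.408% of all genes tested were called, and 0 of 8 reached an unadjusted p under 0.05 (2125 of all genes did). In iILC1 0 of 8 were called, where 0.0482% of all genes were called, and again 0 of 8 reached an unadjusted p under 0.05 (1221 of all genes did). DESeq2 and limma voom also called 0 of 8 in both cell types. In iNK they called 2.11% and 0.415% of all genes, and in iILC1 0.427% and 0.0371%. Averaged over both cell types, 0 of 8 were called beside 0.385% of all genes. In no gene did the cKO libraries lie wholly above or below the control libraries, in iNK (8.84% of all genes did) or in iILC1 (5.48% of all genes did).

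The receptor chains are the parts by which an iNK cell receives IL-15. Il2rb (ENSMUSG00000068227, chromosome 15, 78480553 to 78495066, minus strand) had 3172, 2020.1, 2818 and 2805 CPM in cKO iNK, against 4032, 4064 and 2656 CPM in control iNK. The highest values were in control iNK replicates 1 and 2, and the third control library lay among the cKO libraries. The log2 fold change was −0.41 (SE 0.275, edgeR adjusted p = 0.75), with a 95% interval of the fold of 0.51 to 1.11.

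In iILC1, Il2rb had 4399, 2907, 2688 and 2435 CPM in cKO, against 3311, 2306 and 3100.4 CPM in control. A single cKO library was highest and the rest overlapped the controls. The log2 fold change was 0.097 (SE 0.277, edgeR adjusted p = 0.985).

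Il2rg (ENSMUSG00000031304, chromosome X, 101264378 to 101268255, minus strand) had 273, 204, 213 and 277 CPM in cKO iNK, against 359, 329 and 223 CPM in control iNK. As with Il2rb, control iNK replicates 1 and 2 were highest and replicate 3 fell within the cKO range. The log2 fold change was −0.33 (SE 0.234, edgeR adjusted p = 0.765). In iILC1, Il2rg had 508, 373, 299.5 and 304 CPM in cKO, against 349.5, 257 and 308 CPM in control, and the groups overlapped (log2 fold change 0.28, SE 0.237, edgeR adjusted p = 0.979).

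Il15ra (ENSMUSG00000023206, chromosome 2, 11705290 to 11734317, plus strand), the high-affinity α chain used for presentation, was the steadiest member, and its highest library was 1.58 times its lowest. It had 42.1, 38.8, 37.4 and 36.5 CPM in cKO iNK, against 36.9, 40.9 and 40.8 CPM in control iNK. In iILC1 it had 49.1, 45.8, 38.8 and 31.1 CPM in cKO, against 38.3, 32.4 and 37.2 CPM in control. Neither pair of groups separated, and the log2 fold changes were −0.031 in iNK and 0.20 in iILC1 (edgeR adjusted p = 0.982 and 0.979).

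Jak1 (ENSMUSG00000028530, chromosome 4, 101152367 to 101265282, minus strand) had 4595, 3057, 4093 and 4232 CPM in cKO iNK, against 4241, 4049 and 1956 CPM in control iNK. Control iNK replicate 3 was lowest by far, and the other two controls lay among the cKO libraries. The log2 fold change was 0.23 (SE 0.289, edgeR adjusted p = 0.893). Background reads in control iNK were 1621, 1857 and 2912 CPM in replicates 1 to 3. With the background sum as a covariate the estimate became 0.57 (edgeR adjusted p = 0.0103), and without control iNK replicate 3 it was −0.044, so its direction was not stable. With the B-lineage marker sum, which was higher in every cKO iNK library than in any control iNK library, as a covariate it was 1.93 (edgeR adjusted p = 0.0581).

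The other kinase and both STATs also overlapped between genotypes. Jak3 (ENSMUSG00000031805, chromosome 8, 71676296 to 71690575, plus strand) had 228, 131, 184 and 159 CPM in cKO iNK, against 251, 233 and 151 CPM in control iNK. It had 308, 191, 175 and 148 CPM in cKO iILC1, against 177, 122 and 162 CPM in control iILC1. Its log2 fold changes were −0.27 in iNK (edgeR adjusted p = 0.844) and 0.42 in iILC1 (edgeR adjusted p = 0.979).

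Stat5a (ENSMUSG00000004043, chromosome 11, 100859351 to 100885169, plus strand) and Stat5b (ENSMUSG00000020919, chromosome 11, 100780731 to 100850724, minus strand) are neighbouring paralogs, 8626 bases apart. Stat5a had 95.4, 78.5, 88.1 and 97.3 CPM in cKO iNK, against 93.6, 88.1 and 64.5 CPM in control iNK. Stat5b had 227, 169, 178 and 182 CPM in cKO iNK, against 222, 189 and 124 CPM in control iNK. Both genes were lowest in control iNK replicate 3, and their log2 fold changes were 0.13 for Stat5a and 0.083 for Stat5b (edgeR adjusted p = 0.924 and 0.953).

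In iILC1, Stat5a had 80.1, 80.7, 63.1 and 55.8 CPM in cKO, against 82.2, 43.7 and 57.2 CPM in control. Stat5b had 186, 158, 126 and 145 CPM in cKO iILC1, against 131, 105 and 122 CPM in control iILC1. Stat5a ranges were nested and Stat5b ranges overlapped at their edge, with 1 cKO library inside the control range. The log2 fold changes were 0.20 for Stat5a and 0.37 for Stat5b (edgeR adjusted p = 0.979 for each).

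Over the 8 genes, 4 estimates were above 0 and 4 below in iNK, and their median log2 fold change was 0.026 beside 0.056 for all genes. In iILC1 all 8 estimates were above 0, with a median of 0.25 beside 0.015 for all genes, of which 51.6% were above 0. The 8 genes share libraries and replicate 1 was the highest of its group for 7 of them in cKO iILC1, 8 in control iILC1, 5 in cKO iNK and 6 in control iNK, so the 8 signs are not separate observations. The 95% intervals of the 8 genes reached from a fold of 0.51 to 1.76 in iNK and from 0.722 to 2.08 in iILC1. The difference of the genotype effect between the cell types was tested as an interaction: 0 of 8 were called in the interaction, beside 0.0778% of all genes, and 0 of 8 had an unadjusted p under 0.05 (1905 of all genes did). The largest interaction estimates were 0.69 for Jak3 and 0.61 for Il2rg (edgeR adjusted p = 0.708 and 0.709).

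**Figure D3:**
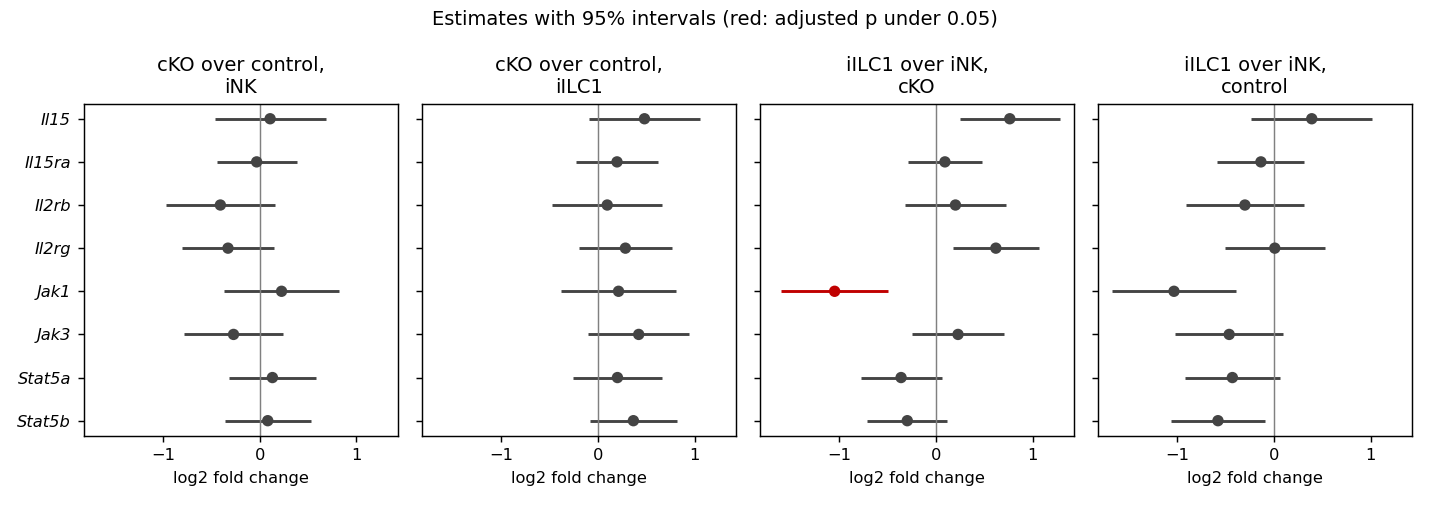
Log2 fold change of each gene with its 95% interval from edgeR, for cKO over control in iNK and in iILC1 and for iILC1 over iNK in cKO and in control; red marks an adjusted p under 0.05. Jak1 in cKO, at −1.05, is the single red point, and the genotype intervals all include 0.

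Between the cell types, Jak1 was the member that changed. Jak1 had 2660, 1727, 1644 and 1695 CPM in cKO iILC1, against 4595, 3057, 4093 and 4232 CPM in cKO iNK. Every cKO iILC1 library lay below every cKO iNK library, a pattern in that direction that 3.08% of all genes showed. Jak1 fell in cKO iILC1 with a log2 fold change of −1.05 relative to cKO iNK (SE 0.269, edgeR adjusted p = 0.0206), a fold of 0.484 with a 95% interval of 0.33 to 0.708. It was the 1 of 8 members called in this comparison, where 3.42% of all genes were called and 1.68% were called lower. DESeq2 and limma voom also called Jak1 alone, beside 4.07% and 3.62% of all genes. With the B-lineage marker sum as a covariate, which separates cKO iNK from the other groups, the estimate was −2.24 (edgeR adjusted p = 0.000948). The call was lost without cKO iNK replicate 1 (edgeR adjusted p = 0.0776), cKO iNK replicate 3 (0.0648), cKO iILC1 replicate 2 (0.0597) or cKO iILC1 replicate 3 (0.0811).

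In control mice, Jak1 had 2043, 1464 and 1489.9 CPM in iILC1, against 4241, 4049 and 1956 CPM in iNK. All 3 iILC1 libraries lay below control iNK replicates 1 and 2, but iILC1 replicate 1 lay above iNK replicate 3. The estimate was −1.04 (SE 0.311, edgeR adjusted p = 0.0559), just short of the threshold, and 0 of 8 members were called where 3.91% of all genes were. Of the 8, 2 had an unadjusted p under 0.05 (5615 of all genes did), and DESeq2 and limma voom each called 1, Jak1, at an adjusted p of 0.00318 and 0.0401, beside 14.6% and 3.31% of all genes. With the background sum as a covariate the control estimate was −0.37 (edgeR adjusted p = 0.214), with the B-lineage sum it was −0.32 (edgeR adjusted p = 0.866), and without control iNK replicate 3 it was −1.32 (edgeR adjusted p = 0.00915).

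Averaged over both genotypes, the log2 fold change of Jak1 in iILC1 over iNK was −1.04 (SE 0.206, edgeR adjusted p = 0.000959), with a 95% interval of the fold of 0.363 to 0.65. It was again the 1 of 8 called, beside 7.78% of all genes called and 5.4% called lower. The estimate stayed below 0 and past the threshold in all 23 alternatives, from −1.28 to −0.65, the last with the background sum as a covariate (edgeR adjusted p = 2.65e-05). DESeq2 called 3 of 8, adding Il15 and Stat5b, where it called 13.8% of all genes it gave an adjusted p. Marker genes of dendritic cells and monocytes, which also use JAK1, summed to 721 to 1173 CPM in cKO iILC1, against 1482 to 2036 CPM in cKO iNK, and to 834 to 1123 CPM in control iILC1, against 1391 to 2523 CPM in control iNK. Of these 16 markers none was at 0 throughout a group, 3 were called higher and 2 lower in iILC1, and their part in the Jak1 difference was not tested.

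Il2rg and Il15 leaned the other way without passing the test. Il2rg in cKO iILC1 lay wholly above cKO iNK (3.52% of all genes did so), at 508, 373, 299.5 and 304 CPM in cKO iILC1 and 273, 204, 213 and 277 CPM in cKO iNK. Its log2 fold change was 0.62 in cKO (SE 0.218, edgeR adjusted p = 0.167) and 0.0061 in control (SE 0.252, edgeR adjusted p = 0.991). With the background sum as a covariate these became 0.72 in cKO (edgeR adjusted p = 4.94e-06) and 0.53 in control (edgeR adjusted p = 0.0125), and both passed the threshold. With this covariate 6.44% of all genes were called in cKO and 3.36% in control. With the B-lineage marker sum as a covariate the cKO estimate of Il2rg was −0.31, so its direction was not stable. Il15 in control iILC1, at 11.7 to 13.7 CPM, lay wholly above control iNK, at 8.16 to 11.1 CPM, as 12% of all genes did in that direction. Its log2 fold change was 0.76 in cKO (edgeR adjusted p = 0.121), 0.39 in control (edgeR adjusted p = 0.461) and 0.58 averaged over both (edgeR adjusted p = 0.0744). With the background sum as a covariate the averaged estimates were 0.63 for Il2rg (edgeR adjusted p = 5.7e-06) and 0.80 for Il15 (edgeR adjusted p = 0.00483), both past the threshold, beside 7.98% of all genes called with this covariate.

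Stat5a and Stat5b had estimates below 0 in both genotypes. Stat5b was −0.58 in control and −0.30 in cKO, and averaged −0.44 (SE 0.155, edgeR adjusted p = 0.0831). Stat5a was −0.43 in control and −0.36 in cKO, and averaged −0.40 (SE 0.157, edgeR adjusted p = 0.131). Neither passed the test. Il2rb, Jak3 and Il15ra averaged −0.051, −0.12 and −0.023, with edgeR adjusted p from 0.721 to 0.942. The cell type estimates of cKO, control and both together share libraries and are not separate evidence.

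Within a library, ratios between members are free of the library's scaling, and they are given here as a description with no test. Jak1 over Jak3 per kb was 6.41 to 8.48 in cKO iILC1 and 6.82 to 8.91 in control iILC1, against 14.9 to 19.7 in cKO iNK and 9.62 to 12.8 in control iNK. The cKO iNK ratios lay above all control iNK ratios, and the iILC1 ratios of both genotypes lay below all iNK ratios. How often ratios of other gene pairs separate these groups was not computed. Il2rb over Il15ra overlapped between all groups, at 101 to 143 in cKO iILC1, 114 to 138 in control iILC1, 83.1 to 123 in cKO iNK and 104 to 175 in control iNK. Il2rb over Il2rg was 6.68 to 7.69 in cKO iILC1 and 7.68 to 8.63 in control iILC1, against 8.47 to 11.4 in cKO iNK and 9.63 to 10.6 in control iNK. Stat5b over Stat5a was steadier, at 2.05 to 3.35 over all 14 libraries with every group overlapping.

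Members moved with background reads inside the groups. In all 4 groups the library with most background had the lowest Jak1, Stat5b and Il2rg, and the library with least background had the highest Jak1, Stat5b and Jak3. For Il15 and Il15ra the library with most background had the lowest value in 1 of 4 groups, and the library with least background had the highest value in 3 of 4, as for Il2rb and Il2rg. The part of this background in the differences was tested only as the covariate above.

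**Figure D4:**
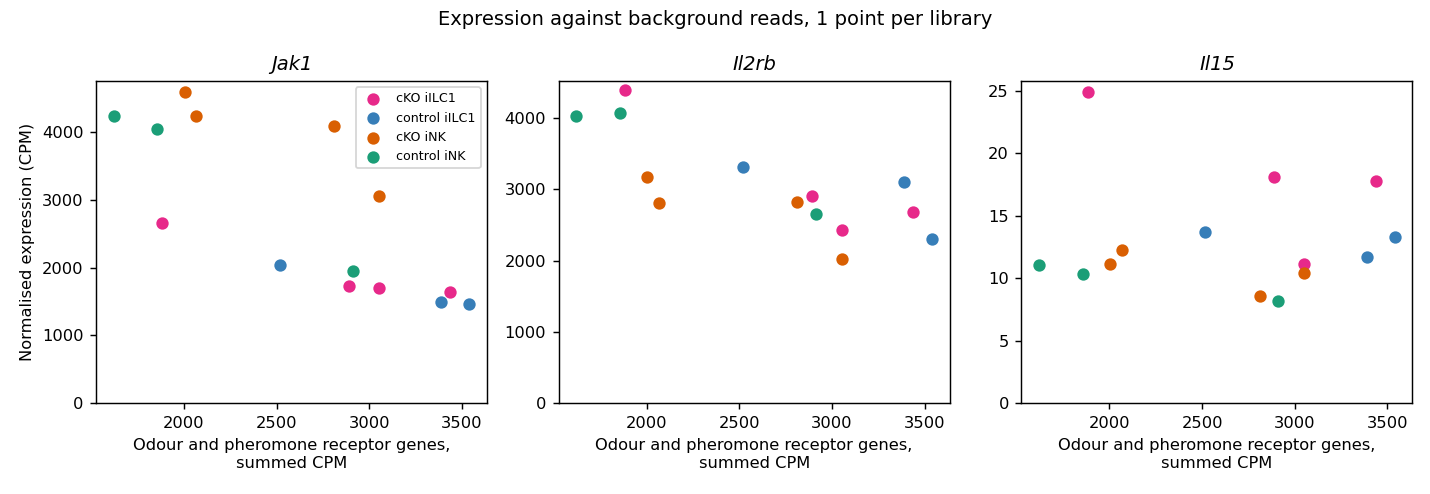
Expression of Jak1, Il2rb and Il15 (CPM) against the summed CPM of the odour and pheromone receptor genes, 1 point per library, coloured by group. Within each group Jak1 is highest where the background is lowest, and cKO iILC1 and control iILC1 mostly run below the iNK libraries of similar background for Jak1.

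For 6 of the 8 genes a promoter window was found in the RefSeq table of GRCm38.p6, and none was found for Il15 and Il2rb. Of their 9 windows, the 250 bases before each start were searched on both strands for TTCNNNGAA (the STAT5 element), CCGGAAGT (ETS), AGGTGTGA (T-box) and TGTGGTTT (RUNX). These letters occur in 7.02%, 2.88%, 1.12% and 1.49% of all 32851 windows, in that order. The one match was AGGTGTGA in Stat5a, 61 to 54 bases before the start. The sequences below are the stretches outside listed exons before the starts of Jak1, the member that changed (chr4:101265283-101265473, minus strand), of Il2rg, the chain shared by the family (chrX:101268256-101268505, minus strand), and of Stat5a, which holds the match in capitals (chr11:100859581-100859655, plus strand).
Jak1: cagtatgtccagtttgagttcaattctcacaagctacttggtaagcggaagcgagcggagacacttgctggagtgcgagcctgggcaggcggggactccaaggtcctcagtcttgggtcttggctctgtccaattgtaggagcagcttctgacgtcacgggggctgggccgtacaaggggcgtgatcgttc
Il2rg: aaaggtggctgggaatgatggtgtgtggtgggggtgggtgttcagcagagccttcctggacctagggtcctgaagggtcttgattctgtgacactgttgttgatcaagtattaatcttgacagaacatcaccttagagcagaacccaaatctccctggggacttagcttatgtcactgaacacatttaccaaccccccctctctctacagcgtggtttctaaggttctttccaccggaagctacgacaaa
Stat5a: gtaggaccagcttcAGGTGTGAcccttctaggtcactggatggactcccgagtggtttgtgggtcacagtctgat

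Some counts may be shared with, or lost to, genes whose exons overlap those of a member. The library kits do not mark strand, so overlaps on either strand are given. Il2rg shares 728 of its 2387 exonic bases with the predicted gene Gm20489, on the same strand, which had 0 to 4 counts. How reads in shared bases were counted is not given, so the Il2rg level per kb may be too low. Jak3 shares 404 with Insl3, on the same strand, which had 8 to 26 counts, and Stat5a shares 72 with Stat3 on the opposite strand, which had 1190 to 4234. Jak1 shares 4 with Raver2, which had 127 to 670 counts, and Stat5a and Stat5b may exchange reads as paralogs.

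The genes whose pattern over the 14 libraries was closest to each member were found among 10331 genes by the root mean square difference of centred log2 CPM. For Jak1 they were Itgb1, Cd72 and Rasl12, at 0.12, 0.148 and 0.154, where Jak1's own deviation was 0.617. Itgb1, which encodes the integrin β1 chain, averaged 987 CPM in cKO iILC1 and 2031 CPM in cKO iNK, and 851 CPM in control iILC1 and 1585 CPM in control iNK. For Il2rb they were Itgb2, Hcls1 and Casp8 (0.0773 to 0.0831), and for Jak3 Itgal, Cmip and Tmc8 (0.0969 to 0.107). Itgb2 and Itgal encode the chains of the integrin LFA-1. For Il2rg they were Txnrd1, H2-Q5 and Rmnd5b, for Stat5b Edc3, Slc25a45 and Zfp251, for Stat5a Fam192a, Kin and Hsd17b4, for Il15 Cers4, Gnal and Camk1d, and for Il15ra Slc20a2, Aven and Cenpb.

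The wider pathway was described by 7 gene lists, of which the JAK and STAT genes outside the chain had no call by genotype. Among Jak2, Tyk2, Stat2, Stat3, Stat4 and Stat6, 0 of 6 were called in iNK or iILC1, where 0.408% and 0.0482% of all genes were. Between cell types in cKO, Jak2, the kinase of several other cytokine receptors, was the 1 of 6 called, and it rose in iILC1, beside 1.74% of all genes called higher. Jak2 averaged 380.5 ± 108 CPM in cKO iILC1 and 191 ± 20.9 CPM in cKO iNK (SD, n = 4 each), with a log2 fold change of 0.99 (edgeR adjusted p = 0.00608). The list's median was −0.091 beside 0.0086 for all genes, and in control 0 of 6 were called, where 3.91% of all genes were.

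Among the receptors and ligands listed with the γ chain family, 10 of 11 were tested. Of these, 1 was called in iNK (0.408% of all genes were) and 0 in iILC1 (0.0482%). The list also holds Crlf2, a receptor chain that does not pair with the γ chain. Il7r, the gate gene of the sort, rose in cKO iNK, at 22.3 ± 5.60 CPM (SD, n = 4) against 8.37 ± 2.59 CPM in control iNK (SD, n = 3), a log2 fold change of 1.42 (edgeR adjusted p = 0.00667). The B-lineage marker sum was higher in cKO iNK too, at 227 to 327 CPM against 59.3 to 76.3 CPM in control iNK. Its part in the Il7r values was not tested. Between cell types 3 of 10 were called in each genotype, all higher in iILC1: Il7r, Il2ra and Il4ra. Of all genes 1.74% were called higher in cKO and 0.911% in control. Il2ra, the α chain that makes the IL-2 receptor high in affinity, averaged 43.2 ± 9.58 CPM in cKO iILC1 and 6.24 ± 1.96 CPM in cKO iNK (SD, n = 4 each), with a log2 fold change of 2.77 in cKO (edgeR adjusted p = 4.27e-08) and 1.98 in control (edgeR adjusted p = 0.000334). Averaged over both genotypes 4 of 10 were called higher, the fourth being Il2, beside 2.38% of all genes.

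T cells, which both gates exclude, also use these 4 genes, and some T-cell markers were higher in iILC1 too. Of 11 T-cell markers tested, 4 were called higher and 1 lower in iILC1 in cKO, 5 higher and 1 lower in control, and 7 higher and 1 lower when averaged. The lower one was Cd247 each time, which encodes the CD3ζ chain that NK cells also use. Of all genes 3.42% were called in cKO, 3.91% in control and 7.78% when averaged. In cKO 6 of the 11 estimates were above 0 and 5 below, and in control 9 were above and 2 below. The 12 markers summed to 540.3 to 1069 CPM in cKO iILC1 and 654 to 1058 CPM in control iILC1, against 578 to 750.2 CPM in cKO iNK and 605 to 918 CPM in control iNK. None was at 0 throughout a group, and their part in the receptor and ligand values was not tested.

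Brakes on the pathway include proteins that STAT signalling itself induces, proteins that remove phosphate from JAKs and STATs, and other inhibitors. Of 21 tested, 2 were called in iNK, both lower in cKO, and 0 in iILC1. Of all genes 0.252% were called lower in iNK, and 0.0482% were called in iILC1. Cish, a SOCS family member induced by STAT5, averaged 6.86 ± 0.198 CPM in cKO iNK (SD, n = 4) and 19.8 ± 6.50 CPM in control iNK (SD, n = 3), with a log2 fold change of −1.52 (edgeR adjusted p = 0.00143). Socs2, also a STAT5 target, averaged 12.2 ± 1.92 CPM in cKO iNK and 26.9 ± 4.84 CPM in control iNK, with a log2 fold change of −1.15 (edgeR adjusted p = 0.00992). The list's median was −0.029 beside 0.056 for all genes.

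Both were far higher in iILC1 than in iNK. Averaged over genotypes, Socs2, Cish and Asb2 were the 3 of 21 called, all higher, with log2 fold changes of 2.55, 2.53 and 3.9, where 2.38% of all genes were called higher. Asb2 is a substrate adaptor of a ubiquitin ligase. Of the other 18, none was called, and the list's median was −0.22 beside 0.11 for all genes. In cKO alone Socs1, a direct inhibitor of JAK kinases, was called too, at 1.08 (edgeR adjusted p = 0.0286).

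Genes that STAT5 is known to induce formed the list with most calls by genotype. In iNK 6 of 20 fell in cKO and 0 rose, beside 0.252% of all genes called lower. All 20 estimates were below 0, as were 44.9% of all genes, with a list median of −0.76 beside 0.056 for all genes. The list was chosen with earlier results of these data known. Its genes share libraries, so the 20 signs are not separate observations. Cish and Socs2, called here, are also in the list of brakes above. Gzmb, the cytotoxic protease granzyme B, averaged 21.5 ± 5.69 CPM in cKO iNK (SD, n = 4) and 135 ± 20.2 CPM in control iNK (SD, n = 3), with a log2 fold change of −2.65 (edgeR adjusted p = 5.57e-08). The B-lineage marker sum was also higher in cKO iNK, at 227 to 327 CPM, than in control iNK, at 59.3 to 76.3 CPM, and its part in these values was not tested. Slc7a5, a carrier of large neutral amino acids, averaged 23.3 ± 2.43 CPM in cKO iNK and 66.9 ± 10.3 CPM in control iNK, with a log2 fold change of −1.52 (edgeR adjusted p = 0.000815). In iILC1 1 of 20 was called, Gzmb, with 19.2 ± 3.79 CPM in cKO iILC1 (SD, n = 4) and 50.9 ± 12.9 CPM in control iILC1 (SD, n = 3), a log2 fold change of −1.41 (edgeR adjusted p = 0.00807). Of all genes 0.0482% were called in iILC1, and the list's median there was 0.026 beside 0.015 for all genes. In the interaction 0 of 20 were called, beside 0.0778% of all genes. All 20 estimates were above 0, as were 48.3% of all genes, with a list median of 0.86 beside −0.032 for all genes.

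Between cell types, the STAT5 response list had 10 of 20 genes higher and 1 lower in iILC1 in cKO, where 3.42% of all genes were called. In control it had 3 higher and 2 lower, where 3.91% of all genes were called. The medians were 0.77 in cKO and −0.20 in control, beside 0.0086 and 0.16 for all genes. The first 3 by p in each genotype were Socs2, Cish and Il2ra, which the lists above also hold. Prf1, which encodes perforin, was the lower gene in cKO, and Prf1 and Gzmb were the lower genes in control. Prf1 averaged 156 ± 36.1 CPM in cKO iILC1 and 323 ± 71.9 CPM in cKO iNK (SD, n = 4 each), with a log2 fold change of −1.05 (edgeR adjusted p = 0.00732). The genotype estimates in iNK and the cell type estimates in cKO share the cKO iNK libraries, whose B-lineage sum was higher than in the other groups.

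The PI3K, AKT and MTOR arm and the SHC, RAS and MAPK arm run from the same receptor. With genotype 0 of 24 and 0 of 18 genes were called in iNK (0.408% of all genes were), and likewise in iILC1 (0.0482%). Their medians in iNK were −0.12 and −0.22 beside 0.056 for all genes. In iILC1 both medians were 0.15 beside 0.015 for all genes. Between cell types, averaged over genotypes, 4 of 24 genes of the PI3K arm fell in iILC1 and 0 rose, beside 5.4% of all genes called lower, with a median of −0.25 beside 0.11 for all genes. Pik3ap1, an adaptor of PI3K, averaged 94.2 ± 25.6 CPM in cKO iILC1 and 195 ± 55.5 CPM in cKO iNK (SD, n = 4 each), with an averaged log2 fold change of −1.15 (edgeR adjusted p = 0.000218). Rps6, a ribosomal protein phosphorylated downstream of MTOR, and Akt2, a kinase of the arm, were at −0.69 and −0.57, and the fourth called gene was Pik3cb, which encodes a catalytic subunit.

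In the MAPK arm 3 of 18 fell in iILC1 and 0 rose, beside the same 5.4% of all genes, with a median of −0.34 beside 0.11 for all genes. Syk, a tyrosine kinase reported to bind the β chain, averaged 213 ± 36.2 CPM in cKO iILC1 and 424 ± 76.8 CPM in cKO iNK (SD, n = 4 each), with an averaged log2 fold change of −1.09 (edgeR adjusted p = 1.66e-05). Gab2, a docking protein, and Hras, a small GTPase, were at −0.82 and −0.56. Of 10 genes of IL-15 presentation and trafficking 0 were called by genotype in either cell type, beside 0.408% of all genes in iNK and 0.0482% in iILC1. Irf8, Nfkb1 and Sppl2b were the 3 of 10 lower in iILC1 when averaged, beside 5.4% of all genes, at −1.10, −0.92 and −0.60, and the list's median was −0.34 beside 0.11 for all genes. Irf8 and Nfkb1 encode transcription factors, and Sppl2b an intramembrane protease.

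**Figure D5:**
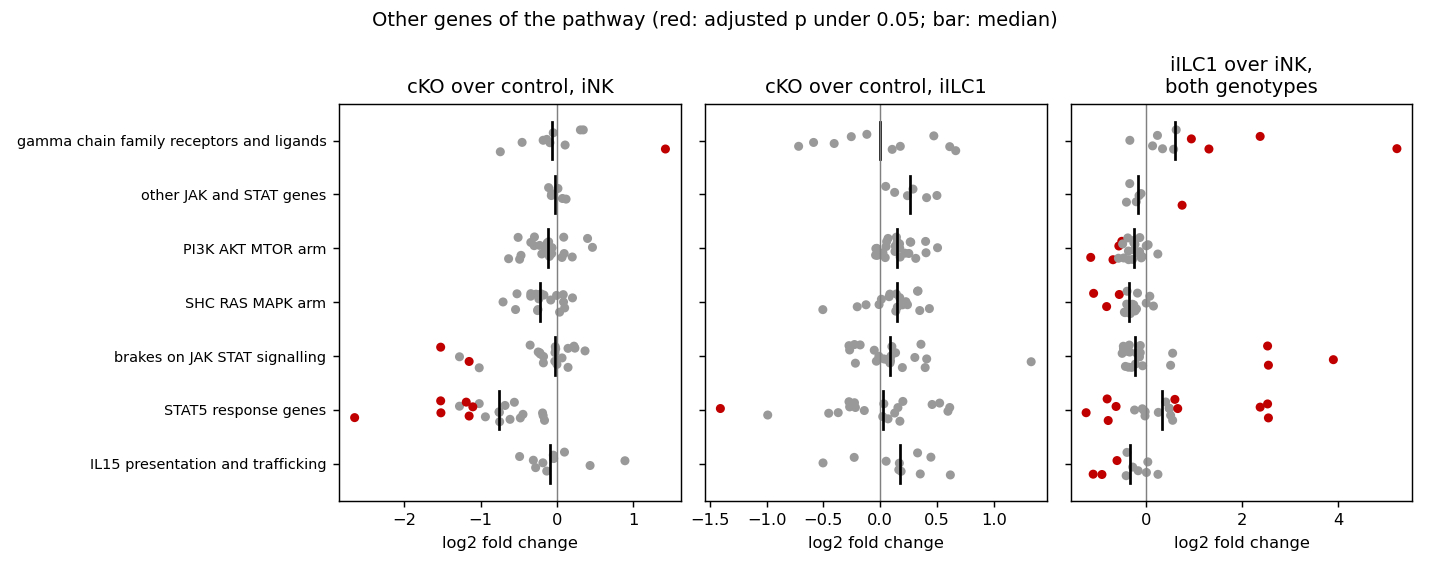
Log2 fold change of each tested gene of the 7 lists for cKO over control in iNK, cKO over control in iILC1 and iILC1 over iNK averaged over genotypes; black bars are list medians and red points have an edgeR adjusted p under 0.05. The STAT5 response genes in iNK all lie below 0, and Il7r is the highest point of the third panel at 5.23.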

How the data were processed

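RNA of 14 libraries of sorted bone marrow cells was amplified with SMART-Seq v4 and tagged with Nextera XT, per the labels' protocols. The authors deposited unnormalised read counts for each Ensembl identifier, as the file headers show. The submitters' processing notes list the build mm10 and the tools Trimmomatic (0.33), HISAT2 (2.1.0), Subread (1.6.5) and featureCounts. Which annotation release and which strand setting were used is not given in the sources used here. Of 46078 identifiers 45143 (97.97%) matched a symbol.

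Genes were kept by edgeR's filterByExpr (minimum count 10, minimum total 15), which left 26990, including all 8 members. CPM values use TMM factors. The main test was the two-sided quasi-likelihood F test of edgeR 4.0.16 (R 4.3.3) on counts, with 1 mean per group, all 14 libraries (10 residual degrees of freedom) and Benjamini-Hochberg adjustment over all genes at 0.05. The common biological coefficient of variation was 30%. SEs were derived from the F statistic. The code was tested on simulated data. Alternatives used DESeq2 1.42.0, limma 3.58.1 voom, other factors and filters, covariates, fewer libraries and a replicate block.

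The named genes were the 8 members, up to 3 called genes per pathway list and comparison by smallest p, and the 3 genes most like each member. The members, lists and alternatives were chosen with earlier results of these data known. Genes named from outside this rule (the fourth called gene of a list) were chosen after their values were seen. A gene of the JAK and STAT list is not reported here, and that list's counts and medians leave it out.

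No library was a copy of another: within a group, chi-square per degree of freedom between libraries was 4.97 to 27.1. The labels do not say that they came from separate mice, so p-values measure the spread between samples, which may be technical.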

Additional observations from a re-analysis of the deposited data

Results flagged for a closer look

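Jak1 in cKO iILC1 had 1 library far from the others. Replicate 1 had 2660 CPM, against 1644, 1695 and 1727 CPM in the other cKO iILC1 libraries, and its gap to the nearest of them was 0.918 of the range of the group, above the 95% critical value of Dixon's test for 4 samples. It was the 1 extreme value found over 16 gene and group sets of 4 libraries, and chance gives about 1 in 20. The same library had the least background of its group, 1881 CPM of odour and pheromone receptor genes. Without it the Jak1 log2 fold change of iILC1 over iNK in cKO was −1.20 (edgeR adjusted p = 0.00126), and it was −1.05 with it.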

How the results depend on the processing

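Each of 40 member-by-comparison estimates was recomputed under up to 24 alternatives (952 values): 857 kept direction and side of the threshold, 34 gained and 4 lost a call, and 57 changed sign. Of the 40, 20 never changed sign. All values are log2 fold changes, and the cause of each shift was not tested.

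In control, iILC1 over iNK had 0 members called, and 1 with DESeq2, limma voom, no filter, a 5 CPM filter, only these groups in the fit or the background covariate (14.6%, 3.31%, 3.08%, 10.6%, 7.79% and 3.36% of all genes, against 3.91%). It was Jak1, except Il2rg with the background covariate. In cKO 1 was called, and 3 with the 5 CPM filter, the background covariate or the B-lineage covariate (8.10%, 6.44% and 12.9% of all genes, against 3.42%). Averaged, 1 was called, and 3 with DESeq2 or the background covariate (13.8% and 7.98% of all genes, against 7.78%) and 4 with the 5 CPM filter or the B-lineage covariate (17.7% and 28.3%). By genotype 0 were called, and 1 in iNK and 1 averaged with the background covariate (1.65% and 1.98% of all genes, against 0.408% and 0.385%), and 3 averaged with the B-lineage covariate (5.86%). Leaving out 1 library gave 0 to 2 called in control, 0 to 2 in cKO and 1 to 2 averaged.

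The labels do not say that a replicate number marks a shared origin, and the same-number pairs were not all over 0.1 (r −0.151 to 0.581 over 19 pairs, 11 over 0.1), so the block was not the main design. The 6 pairs of replicate 1 were all over 0.1, at 0.184 to 0.581, and 5 of 14 libraries correlated best with their own number. With the replicate block 1 member was called in control and 3 averaged (8.20% and 11.7% of all genes), and Il15ra by genotype in iNK was 0.045.

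Il2rg in control reversed to −0.034 with DESeq2 or RLE factors and −0.030 with no filter. The 5 CPM filter gave Il15ra 0.031 by genotype in iNK, 0.050 in control and 0.083 averaged, and Il2rb −0.013 by genotype in iILC1 and 0.056 averaged. The background covariate gave Il15ra 0.027 by genotype in iNK and 0.056 averaged, Jak3 0.020 by genotype in iNK, 0.15 in control and 0.24 averaged, and Il2rb −0.087 by genotype in iILC1, 0.23 in control and 0.27 averaged. Without control iNK replicate 1 and cKO iILC1 replicate 1 together, Il2rb was −0.12 by genotype in iILC1, and in cKO Il15ra was −0.0055, Il2rb −0.018 and Jak3 −0.037. The B-lineage covariate, whose sum separates cKO iNK from the other groups, gave by genotype Il15ra 0.35, Il2rb 1.03, Il2rg 0.97 and Jak3 1.44 in iNK and Il2rb −0.082 in iILC1. It gave Il15ra 0.017, Il2rb 0.28 and Jak3 0.24 in control, and Il15ra −0.18, Il2rb −0.83, Il2rg −0.31 and Jak3 −0.999 in cKO.

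Leaving out 1 library, estimates by genotype in iNK ran from −0.073 to 0.041 for Il15ra, −0.0013 to 0.22 for Il15, −0.044 to 0.43 for Jak1, −0.0055 to 0.25 for Stat5a and −0.11 to 0.29 for Stat5b. They ran from −0.12 to 0.21 for Il2rb by genotype in iILC1, −0.18 to 0.14 for Il2rg in control, and −0.064 to 0.070 for Il15ra and −0.15 to 0.037 for Il2rb averaged. Calls over all genes ran from 63 to 444 by genotype in iNK, 4 to 57 in iILC1, 48 to 1581 by genotype averaged, 394 to 2212 in control, 713 to 3490 in cKO and 1378 to 7639 for cell type averaged, over all alternatives. Il15 counts of 47 to 206 per library limit its precision.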
